A study of Mus musculus with 4 samples.

Results

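The genes described here are 36 interferon-stimulated genes, genes whose transcription is switched on when a cell senses interferon. They were chosen by name, and each name was looked up in the gene tables of the 4 libraries. Each of the 36 was found on 1 row, among 23337 gene names per library, and all 36 passed the filter on low values, which kept 12251 genes. Macrophages were sorted from the liver, where the resident macrophages are called Kupffer cells, and their total RNA was sequenced. The donors were Lyz2cre-RosaYFP mice, male and female, at an age of 6 to 8 weeks. Cre recombinase is driven here by the myeloid lysozyme gene Lyz2 and removes a stop from a Rosa reporter of yellow fluorescent protein (YFP) for good, so YFP marks cells that had active Cre themselves or descend from such cells. All groups carry this reporter, and they differ in the sort: 2 libraries are of YFP+ and 2 of YFP- cells. In each group 1 title begins with M and the other with FM, and the libraries are named by these starts below. The labels state neither what the starts stand for nor how many animals each library holds, so the spread between libraries may be technical.

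Interferons are secreted proteins. Type I interferons (the alpha and beta families) bind a receptor of Ifnar1 and Ifnar2, and interferon gamma, made mainly by T and NK cells, binds Ifngr1 and Ifngr2. Janus kinases at these receptors activate STAT proteins, which enter the nucleus and bind the interferon-stimulated response element (ISRE) after type I interferon and the gamma-activated site (GAS) after interferon gamma. The induced genes include sensors of viral RNA, feedback regulators, effectors that block viral entry or replication, and GTPases that attack the vacuoles of intracellular microbes. Kupffer cells meet microbial products from the gut through portal blood.

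The response elements can be read in the promoters of these genes, and those of some of the genes described below are shown. Sequences are from RefSeq (GRCm38.p6), in windows from 250 bases before to 50 bases after each transcription start. Of the 36 genes 27 had such a window in the table. The ISRE was searched as GAAANNGAAA and the GAS as TTCNNNGAA, on both strands, where N is any base. Of the 27 genes 20 (74.1%) held the ISRE letters and 9 (33.3%) the GAS letters. A gene counted if any of its windows matched. Counted by window, 21 of the 32 windows of these genes (65.6%) held the ISRE letters and 9 (28.1%) the GAS letters. Among all 32851 promoter windows of the same length the shares were 3.44% and 8.30%. A match is a match of letters and not a measured binding site. The 250 bases before the start are given for Isg15, which holds a run of 3 overlapping ISRE matches (capitals), and for Irf7, the regulator with the highest level, which held no match to either motif in its window.
Isg15, chr4:156200819-156201068, minus strand: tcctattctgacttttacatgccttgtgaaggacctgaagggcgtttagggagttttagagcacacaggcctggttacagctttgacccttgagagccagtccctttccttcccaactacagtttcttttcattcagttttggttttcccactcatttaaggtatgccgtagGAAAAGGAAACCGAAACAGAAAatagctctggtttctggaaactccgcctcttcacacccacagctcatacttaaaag
Irf7, chr7:141266425-141266674, minus strand: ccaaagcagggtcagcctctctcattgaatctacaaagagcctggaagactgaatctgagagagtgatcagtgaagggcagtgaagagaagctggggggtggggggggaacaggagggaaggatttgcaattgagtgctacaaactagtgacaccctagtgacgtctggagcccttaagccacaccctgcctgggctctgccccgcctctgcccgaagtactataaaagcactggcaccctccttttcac

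Matches were present in genes at higher level in YFP+ libraries (Ifitm3, Ifitm2, Oas1a and Bst2) and in genes at lower level there (Irgm1, Irgm2 and Gbp5). Windows of 30 bases are shown for these genes with the letters of the motif named in capitals. Oasl1 and Xaf1, called higher under median-ratio scaling below, held no match to either motif, like Irf7. Neither did Ifi44 and Oasl2, which, like Xaf1 (-0.18), had negative differences on the deposited values. In Ifitm3 a GAS match begins 13 bases after the start, and ISRE matches begin 2 and 19 bases after it, within the same window. The Oas1a, Bst2 and Irgm1 runs hold 2 overlapping matches each. GAS matches were found in genes of both kinds, in Ifitm3, Oas1a and Bst2 as well as in Gbp5 and Irgm2, and Irgm2 was chosen after its values were seen.
Ifitm3 GAS, chr7:141010713-141010742, minus strand: gaaaaggaaacTTCTGAGAAaccgaaactg
Ifitm2 ISRE, chr7:140955988-140956017, minus strand: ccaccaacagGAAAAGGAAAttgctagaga
Oas1a ISRE, chr5:120907523-120907552, minus strand: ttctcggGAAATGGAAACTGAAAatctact
Oas1a GAS, chr5:120907605-120907634, minus strand: aaagctcagacTTCAAAGAAcctggtcaga
Bst2 ISRE, chr8:71537580-71537609, minus strand: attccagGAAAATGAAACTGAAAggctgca
Bst2 GAS, chr8:71537590-71537619, minus strand: ttctaggggcaTTCCAGGAAaatgaaactg
Irgm1 ISRE, chr11:48871428-48871457, minus strand: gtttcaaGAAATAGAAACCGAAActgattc
Irgm2 ISRE, chr11:58214903-58214932, plus strand: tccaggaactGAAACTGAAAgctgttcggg
Irgm2 GAS, chr11:58214891-58214920, plus strand: aaactagccatTTCCAGGAActgaaactga
Gbp5 ISRE, chr3:142496759-142496788, plus strand: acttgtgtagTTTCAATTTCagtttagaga
Gbp5 GAS, chr3:142496871-142496900, plus strand: ctggccgttatTTCTCAGAAccaagcacag

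Levels are in TPM, a length-scaled share of the library, and the libraries differ in ways that touch every value. The tables hold no read counts. Mean coverage of a gene at 1 FPKM, a length- and depth-scaled fragment number, ranged from 2.59 to 9.19 between libraries, and 7386 to 12829 genes reached 1 TPM, fewest in YFP+ FM. The 12 Kupffer cell markers summed to 42719 TPM in YFP+ M, 40159 in YFP+ FM, 7168 in YFP- M and 13520 in YFP- FM. The 12 microglia markers, of the resident macrophages of the brain, summed to 1383, 147, 22407 and 20308 TPM in the same order. Thus the libraries labelled as YFP- liver macrophages held more microglia marker than Kupffer cell marker transcript. All 12 microglia markers were called lower in YFP+ libraries by limma, against 39.5% of all tested genes. Of the 12 Kupffer cell markers 6 were called higher, against 0.522%. Under quantile normalization, median-ratio scaling and cyclic loess 12, 9 and 4 microglia markers were called lower, against 1.67%, 5.9% and 0.327%. In the same fits 0, 7 and 0 Kupffer cell markers were called higher, against 1.21%, 5.62% and 0.531%. YFP+ and YFP- are used below as the labels of the libraries. Every difference between them is also one between libraries that differ in these markers, and whether each library matches its label was not tested. In bulk RNA, fewer cells of a type and less RNA per cell cannot be told apart.

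**Figure D1:**
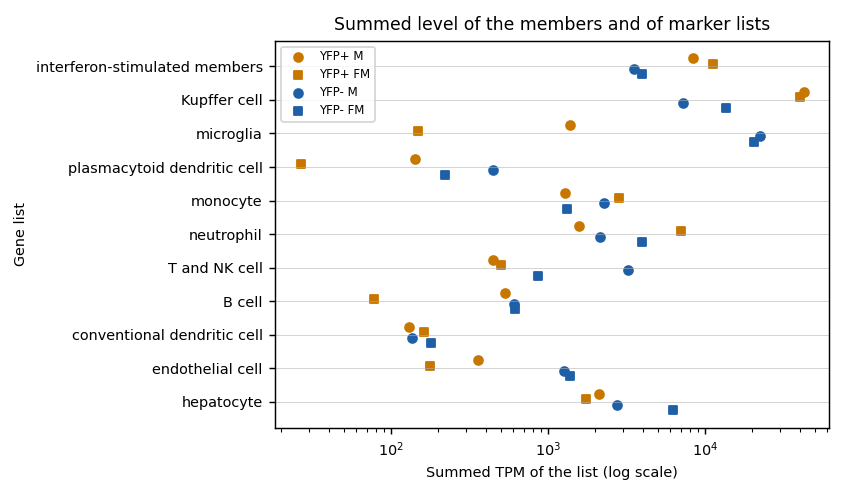
Summed TPM (log axis) of the 36 interferon-stimulated genes and of 10 marker lists in each library, 1 point per library, orange for YFP+ and blue for YFP-, circles for M and squares for FM. The microglia list sits at 22407 and 20308 TPM in the YFP- libraries and at or below 1383 TPM in both YFP+ libraries.

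The comparison asked how the levels of interferon-stimulated genes differ between YFP+ and YFP- cells. A few abundant genes were higher in YFP+ libraries, led by the viral entry blocker Ifitm3 and the transcription factor Irf7, while 26 of the 36 had a negative difference, beside 93.5% of all tested genes. All 8 interferon-inducible GTPases were lower in level in every YFP+ library than in every YFP- library, as were 79.7% of all tested genes. The 36 genes summed to 8302 TPM in YFP+ M, 11225 in YFP+ FM, 3519 in YFP- M and 3954 in YFP- FM. Ifitm3, Ifitm2 and Irf7 made up 83.6%, 93.5%, 70.0% and 35.95% of these sums. The other 33 genes summed to 1364, 726, 1056 and 2533 TPM in the same order, so without those 3 the sums of the groups overlapped, with the highest in YFP- FM and the lowest in YFP+ FM.

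**Figure D2:**
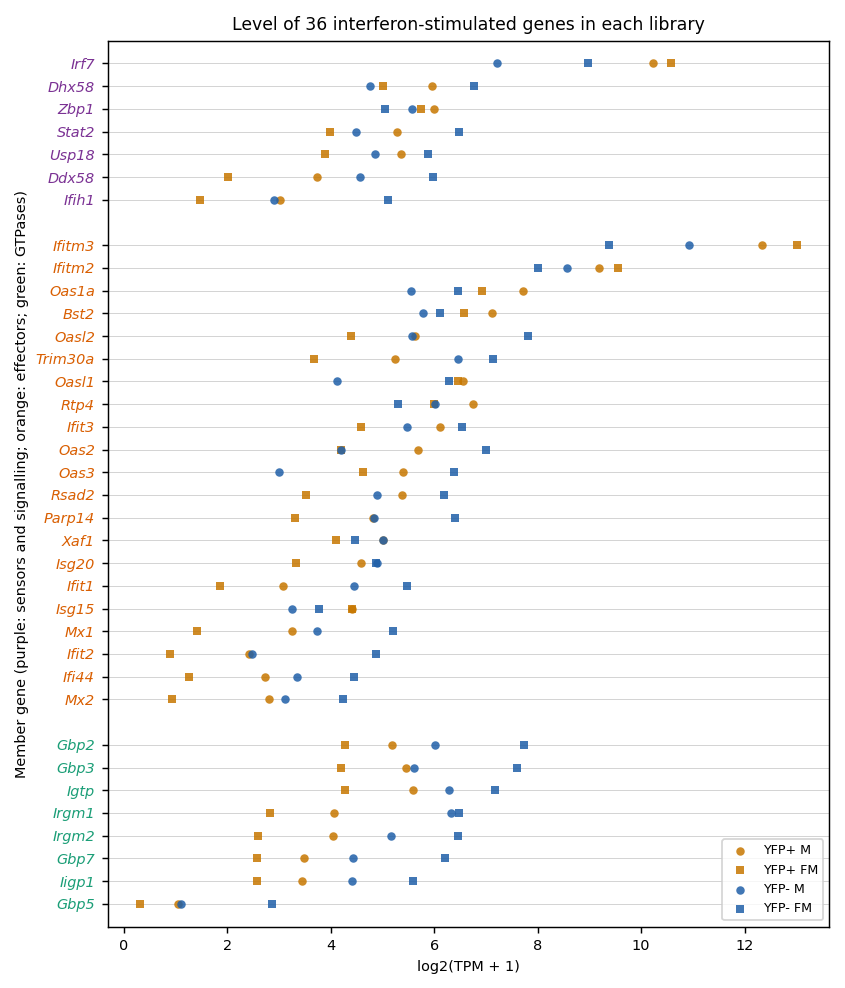
Level of each of the 36 genes as log2(TPM + 1), 1 point per library, ordered by role and by mean level. Ifitm3, Ifitm2 and Irf7 lie to the right with both YFP+ libraries highest, and all 8 GTPases have both YFP- libraries to the right of both YFP+ libraries.

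Differences are log2(TPM + 1) in YFP+ less that in YFP- libraries, a scale on which changes of low genes come out too small, and were tested with limma over all 12251 genes (Benjamini-Hochberg adjusted p, threshold 0.05). Of the 36 genes 2 were called higher and 2 lower in YFP+ libraries. Among all tested genes 0.522% were called higher and 39.5% lower. At an unadjusted p under 0.05 the counts among the 36 were 2 and 8, and the shares of all tested genes 0.718% and 52.4%. The median difference of the 36 was -1.19, beside -1.73 for all tested genes. TPM is a share of the library, and the all-gene median depends on how the libraries are scaled. Quantile normalization, median-ratio scaling and cyclic loess align the centres of the libraries and so bring this median near 0 by design. It was -0.03, -0.08 and -0.01 under them. Differences below are to be read against the all-gene median of the same scaling. On the deposited values both YFP+ libraries lay above both YFP- libraries for 8 of the 36 genes, against 2.5% of all tested genes, and below them for 17, against 79.7%.

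Sensors and signalling genes were led by Irf7, the transcription factor that amplifies type I interferon production (chromosome 7, 141263183 to 141266424, GRCm38). Its level was 1197 TPM in YFP+ M, 1522 in YFP+ FM, 147 in YFP- M and 499 in YFP- FM. Both YFP+ libraries were above both YFP- libraries, and the YFP- libraries differed from each other more than the YFP+ libraries did. The group means were 1359 ± 229.9 and 323 ± 249 TPM (SD, n = 2 libraries each), and Irf7 rose by 2.31 (SE 0.78, adjusted p = 0.0141 by limma). It was called under median-ratio scaling (4.61, adjusted p = 0.0128) but not under quantile normalization (2.38, adjusted p = 0.123), cyclic loess (2.21, adjusted p = 0.167) or with the title start as a block (adjusted p = 0.0916). Without YFP+ FM its adjusted p was 0.171 and without YFP- M 0.388.

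Zbp1, a sensor of Z-form nucleic acids that can trigger cell death, was at 62.7 and 52.8 TPM in YFP+ M and FM and at 46.4 and 32.2 TPM in YFP- M and FM. The groups did not overlap, but the difference of 0.56 was smaller than its SE of 1.02 (adjusted p = 0.636). Dhx58, which encodes the RNA sensor regulator LGP2, was at 61.1 and 31.2 TPM in YFP+ against 26.1 and 108 TPM in YFP-, with the YFP- libraries at both ends. Zbp1 and Dhx58 were called higher under median-ratio scaling (adjusted p = 0.0118 and 0.0493) and in no other fit. The viral RNA sensors Ifih1 (MDA5) and Ddx58 (RIG-I) had differences of -1.75 and -2.39, the transcription factor Stat2 of -0.85 and the ISG15 protease Usp18 of -0.73. None of these 4 passed (adjusted p from 0.0705 to 0.552), and YFP+ FM was the lowest library for all of them. Of the 7 sensors and signalling genes 1 was called higher and 0 lower by limma, against 0.522% and 39.5% of all tested genes. At an unadjusted p under 0.05 the counts were 1 and 1, against 0.718% and 52.4%.

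Among the 21 antiviral effectors Ifitm3, a membrane protein that blocks virus fusion in endosomes (chromosome 7, 141009590 to 141010744), had the highest level. It was at 5157 TPM in YFP+ M, 8222 in YFP+ FM, 1935 in YFP- M and 667 in YFP- FM. Both YFP+ libraries were above both YFP- libraries, and its percentile among the tested genes was 98.2 or higher in each library. The means were 6689 ± 2167 and 1301 ± 897 TPM (n = 2 each), and Ifitm3 rose by 2.52 (SE 0.65, adjusted p = 0.00139 by limma). With the title start as a block it was still called (adjusted p = 0.0264). Under quantile normalization (2.13, adjusted p = 0.143), median-ratio scaling (4.82, adjusted p = 0.0775) and cyclic loess (1.52, adjusted p = 0.200), and without YFP+ FM (adjusted p = 0.193), it was not. Its neighbour and close homolog Ifitm2 was at 585 and 755 TPM in YFP+ against 381 and 256 TPM in YFP- libraries. The Ifitm2 groups did not overlap, and its difference of 1.09 did not pass (adjusted p = 0.244). Reads of these similar genes may have been split between them in a way the files do not record. Of the other family members, named after their values were seen, Ifitm1 (0.01) and Ifitm6 (-0.35) had differences near 0.

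Oas1a, which makes the 2-5A signal that activates RNase L, was at 208 and 120 TPM in YFP+ M and FM and at 46.2 and 86.9 TPM in YFP- M and FM. Oasl1, a family member without that activity, was at 92.6 and 86.8 against 16.4 and 76.7 TPM. In both genes the groups did not overlap, with the lowest value in YFP- M. Their differences of 1.30 and 1.30 did not pass (adjusted p = 0.238 and 0.263). Oas3 was at 41.2 and 23.8 TPM in YFP+ against 6.95 and 82.9 TPM in YFP- libraries, and Oas2 at 50.4 and 17.4 against 17.4 and 127 TPM. For Oas2 and Oas3 the highest level was in YFP- FM, so the groups overlapped. Oas1g, a near copy of Oas1a that was named after its values were seen, stood at 100.3 and 62.9 against 16.8 and 34.5 TPM. Oas1g was called higher under quantile normalization (3.23, adjusted p = 0.0311), median-ratio scaling (3.90, adjusted p = 0.00287) and cyclic loess (3.21), though not on the deposited values (1.68, adjusted p = 0.162).

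Isg15, a ubiquitin-like protein that is joined to other proteins and is also secreted (chromosome 4, 156199424 to 156200818), was at 20.2 TPM in YFP+ M, 20.4 in YFP+ FM, 8.49 in YFP- M and 12.7 in YFP- FM. The YFP+ libraries were nearly equal and above both YFP- libraries. Its difference was 0.90 (SE 1.13, adjusted p = 0.487) on the deposited values. Isg15 was called higher under quantile normalization (2.72, adjusted p = 0.0377) and median-ratio scaling (3.02, adjusted p = 0.00622), and under cyclic loess its adjusted p was 0.0550. It was the 1 gene of the 36 called under quantile normalization, which called 1.21% of all tested genes higher. Bst2 (tetherin), which holds budding virions at the cell surface, was at 138 and 94.9 against 54.2 and 67.8 TPM, with groups that did not overlap (0.91, adjusted p = 0.416). The chaperone-like Rtp4 was at 107 and 63.1 against 63.9 and 38.2 TPM, and the apoptosis-linked Xaf1 at 31.2 and 16.2 against 31.0 and 21.1 TPM. Rtp4 and Xaf1 overlapped between groups.

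Oas2 (-0.66) and Xaf1 (-0.18) had negative differences on the deposited values, and so did the remaining 11 effectors. The translation inhibitors Ifit1, Ifit2 and Ifit3 had differences of -2.49, -2.02 and -0.65, and Ifit1 was at 7.40 and 2.65 TPM in YFP+ against 20.9 and 43.4 TPM in YFP- libraries. Ifit3 was highest in YFP- FM at 91.9 TPM and next in YFP+ M at 68.5 TPM, and how its reads were split from the near copy Ifit3b is uncertain. The GTPases Mx1 and Mx2 had differences of -2.13 and -1.80, and Mx1 is known to be defective in many laboratory strains. Rsad2 (viperin) was at -1.09, Ifi44 at -1.91, Oasl2 at -1.67, the exonuclease Isg20 at -0.92, Parp14 at -1.55 and Trim30a at -2.34. None of these 11 genes passed on the deposited values, and the lowest adjusted p was 0.0533, of Trim30a. Of the 21 effectors 1 was called higher and 0 lower by limma, against 0.522% and 39.5% of all tested genes. At an unadjusted p under 0.05 the counts were 1 and 2, against 0.718% and 52.4%.

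The 8 interferon-inducible GTPases are known above all as targets of interferon gamma. For all 8, both YFP+ libraries were below both YFP- libraries, a pattern shown by 79.7% of all tested genes. Irgm1, which controls the other GTPases of its family (chromosome 11, 48865249 to 48871346), was at 15.6 TPM in YFP+ M, 6.13 in YFP+ FM, 79.3 in YFP- M and 88.8 in YFP- FM. The YFP- libraries were close to each other and far above both YFP+ libraries. The means were 10.9 ± 6.70 and 84.0 ± 6.68 TPM (n = 2 each), and Irgm1 fell by 2.96 on the log2 scale (SE 1.07, adjusted p = 0.0211 by limma). Gbp5, a guanylate-binding protein linked to inflammasome activation, fell by 1.30 (adjusted p = 0.0328), at 1.07 and 0.249 TPM in YFP+ against 1.15 and 6.24 TPM in YFP- libraries. The YFP- FM library stood apart, YFP- M was nearly level with YFP+ M, and mean coverage of Gbp5 was only 0.524 in YFP+ FM. Neither Irgm1 nor Gbp5 was called under the 3 scalings (adjusted p from 0.212 to 0.869), where Irgm1 stayed negative (-1.25, -0.77 and -1.21) and Gbp5 turned positive under quantile normalization (0.37) and cyclic loess (0.26), nor with the title start as a block, or without YFP+ FM, YFP- M or YFP- FM.

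The other GTPases did not pass. Gbp2 was at 35.2 and 18.2 TPM in YFP+ against 64.0 and 212 TPM in YFP- libraries, Gbp3 at 42.8 and 17.3 against 47.5 and 194 TPM, and Igtp (IRGM3) at 47.3 and 18.4 against 76.9 and 144 TPM. In each of these the order was YFP- FM, YFP- M, YFP+ M and YFP+ FM. Irgm2 (-2.49, adjusted p = 0.0541), Gbp7 (-2.29) and Iigp1 (-2.00) followed the same order. The median difference of the 8 was -2.08, below the -1.73 of all tested genes, whereas those of the sensors (-0.73) and effectors (-0.66) were above it. Under quantile normalization, median-ratio scaling and cyclic loess the median of the 8 was -0.38, -0.0042 and -0.37, beside -0.03, -0.08 and -0.01 for all tested genes, so it lay above the all-gene median under median-ratio scaling. In rank, 2 of the 8 (25.0%) had both YFP+ libraries below both YFP- libraries, against 30.1% of all tested genes. No test was made between these groups of genes. Of the 8 GTPases 0 were called higher and 2 (25.0%) lower, against 0.522% and 39.5% of all tested genes. At an unadjusted p under 0.05 the counts were 0 and 5 (62.5%), against 0.718% and 52.4%.

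**Figure D3:**
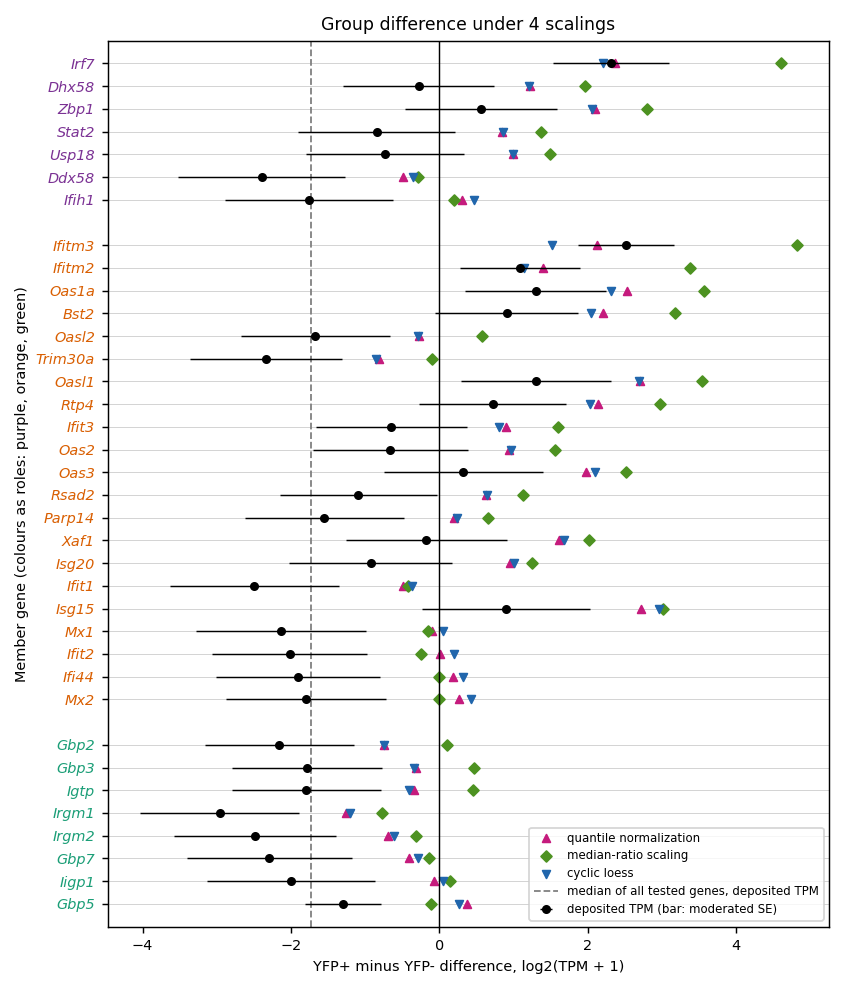
YFP+ minus YFP- difference of each gene on the log2(TPM + 1) scale, with the moderated SE as a bar for the deposited values (black) and the difference after quantile normalization, median-ratio scaling and cyclic loess in colour. The dashed line is the median of all tested genes at -1.73. Rescaling moves most genes to the right. Irgm1, Irgm2, Gbp7, Ddx58, Ifit1 and Trim30a are below 0 in all 4. Irf7, Ifitm3, Ifitm2, Oas1a, Oas3, Oasl1, Isg15, Bst2, Zbp1 and Rtp4 are above 0 in all 4.

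How many of the 36 were called differed between scalings. Median-ratio scaling called 11 higher, against 5.62% of all tested genes, and 0 lower, against 5.9%. These 11 were Irf7, Isg15, Oas1a, Oas3, Oasl1, Dhx58, Ifitm2, Bst2, Xaf1, Zbp1 and Rtp4. Quantile normalization called 1 higher and 0 lower (9 and 1 at an unadjusted p under 0.05, against 10% and 10.5% of all tested genes), and limma after cyclic loess called 0 in either direction, against 0.531% and 0.327% of all tested genes (10 and 1 unadjusted, against 10.8% and 8.77%). The median of the 36 turned from -1.19 to 0.50, 0.89 and 0.55 under quantile normalization, median-ratio scaling and cyclic loess. Quantile normalization called 1.67% of all tested genes lower.

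The calls among the 36 also moved when 1 library was left out, with the share of all tested genes called moving beside them. Without YFP+ M 2 genes were called higher (0.346% of all tested genes) and 18 lower (68.2%), among the 18 all 8 GTPases, Ifit1, Ifit2, Mx1 and Mx2. Without YFP- M 1 was called higher (0.69%), Ifitm3, and 0 lower (0.253%). Without YFP+ FM none of the 36 was called by limma, against 0.0983% and 7.95%, and at an unadjusted p under 0.05 the counts were 0 and 1, against 0.475% and 29.7%. Without YFP- FM Ifitm3 and Irf7 were called higher (0.399%) and 0 genes lower (0.234%). A group left with 1 library is taken to vary like the other. With the title start as a block 1 was called higher, Ifitm3 (0.188%), and 0 lower (14.1%). A smaller pseudocount (0.1), all genes unfiltered, a 5 TPM minimum and FPKM values each called Ifitm3 and Irf7 higher (0.416%, 0.346%, 0.621% and 0.98%) and 1 gene, Irgm1, lower (25.1%, 28.7%, 31.6% and 33.2%).

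A rank within its own library does not depend on the scaling of that library. Each gene was therefore placed as a percentile among the 12251 tested genes of a library. A rank still moves with how many genes a library detects. Of the tested genes 58 were at 0 in YFP+ M, 945 in YFP+ FM, 4 in YFP- M and 24 in YFP- FM. Isg15, at 20.2 and 20.4 TPM in YFP+ M and FM, thus had unlike percentiles in these libraries. The median percentile of the 36 was 84.0 in YFP+ M, 83.3 in YFP+ FM, 66.9 in YFP- M and 80.9 in YFP- FM. The separation in rank was widest for Isg15, which stood at the 74.3 and 86.0 percentiles in YFP+ M and FM and at 35.3 and 36.2 in YFP- M and FM. Zbp1 stood at 89.4 and 92.4 against 77.8 and 60.9, and Rtp4 at 93.1 and 93.2 against 83.5 and 65.8. The TPM of Zbp1, on which its percentile rests, was out of step with its mean coverage. In YFP+ M that coverage was 41.5, below the 65.5 of Isg15, though Zbp1 had the higher TPM (62.7). Bst2 stood at 94.4 and 94.8 against 80.7 and 79.1. In Zbp1, Rtp4 and Bst2 the YFP+ libraries lay close together, and in all 4 genes they lay above both YFP- libraries.

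In rank, both YFP+ libraries were above both YFP- libraries for 15 of the 36 genes (41.7%), against 24.7% of all tested genes. They were below for 4 (11.1%), against 30.1%. The 15 were Isg15, Ifit3, Oas1a, Oas3, Oasl1, Irf7, Usp18, Dhx58, Ifitm2, Ifitm3, Bst2, Xaf1, Zbp1, Isg20 and Rtp4, and the 4 were Ifit1, Irgm1, Irgm2 and Trim30a. Irgm1 stood at 69.6 and 71.0 in YFP+ against 86.6 and 83.8 in YFP- libraries. None of the 8 GTPases was among the 15, while 11 of the 21 effectors and 4 of the 7 sensors were.

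**Figure D4:**
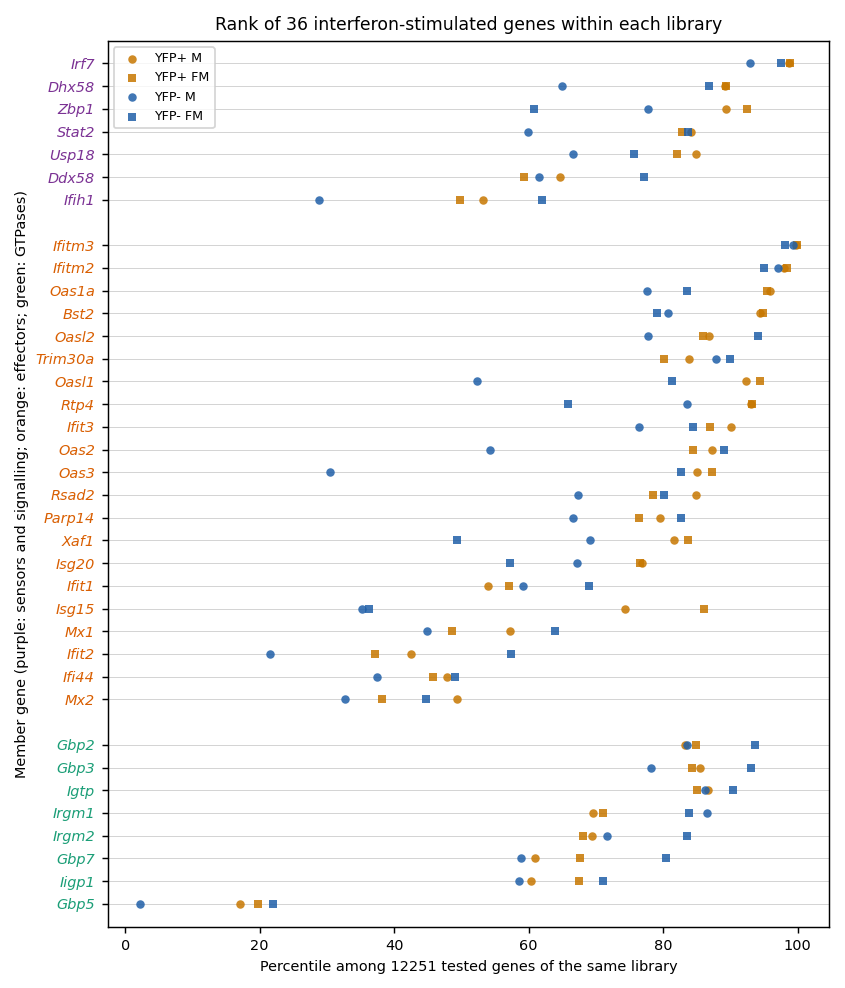
Percentile of each gene among the 12251 tested genes of its own library, 1 point per library, in the order and colours of the plot of levels. Isg15 shows the widest gap, with YFP+ libraries at 74.3 and 86.0 and YFP- libraries at 35.3 and 36.2, and Irgm1 has the reverse order.

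The M and FM libraries gave different pictures of the same comparison. Between the M libraries 19 of the 36 genes were higher in YFP+ (52.8%, against 14.0% of all tested genes), with a median difference of 0.03 beside -1.01 for all tested genes. Between the FM libraries 9 were higher (25.0%, against 5.68%), with a median of -2.73 beside -2.48. The 9 genes were higher in both starts: Isg15 (1.16 in M and 0.65 in FM), Oas1a (2.15 and 0.46), Oasl1 (2.43 and 0.18), Irf7 (3.02 and 1.61), Ifitm2 (0.62 and 1.56), Ifitm3 (1.41 and 3.62), Bst2 (1.33 and 0.48), Zbp1 (0.43 and 0.70) and Rtp4 (0.73 and 0.71). Each start has 1 library per group, so these differences have no replicate check.

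The YFP- libraries differed from each other in many of these genes. YFP- FM was above YFP- M for 30 of the 36 (83.3%), against 68.3% of all tested genes. The gap was wide for Oas3 (82.9 against 6.95 TPM), Oas2 (127 against 17.4 TPM), Ifit2 (28.4 against 4.57 TPM) and Ifih1 (33.4 against 6.51 TPM), which were named after their values were seen. YFP+ FM was below YFP+ M for 32 of the 36 (88.9%), against 93.6% of all tested genes. YFP- FM held the highest and YFP+ FM the lowest level for all 8 GTPases, the 3 Ifit genes and the 2 Mx genes. The same order held for Oas2, Oasl2, Rsad2, Stat2, Ifi44, Usp18, Ifih1, Ddx58, Trim30a and Parp14. It was thus not particular to those families, and its share among all tested genes was not counted.

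**Figure D5:**
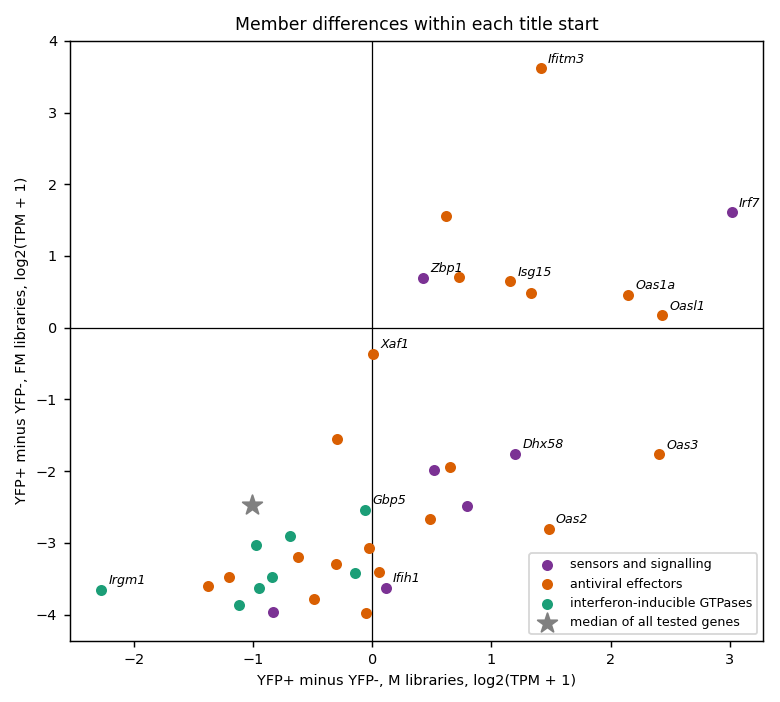
YFP+ minus YFP- difference on the log2(TPM + 1) scale between the M libraries (horizontal) and between the FM libraries (vertical), 1 point per gene, coloured by role, with the medians of all tested genes as a star. The 9 genes higher in both starts lie in the upper right, all GTPases lie in the lower left, and Oas3, Oas2 and Dhx58 are higher in YFP+ M but lower in YFP+ FM.

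Upstream of these genes, transcripts of type I interferons were at or near 0. Of 21 interferon genes looked up, 15 to 18 were listed at 0 in each library, and an exact 0 in such tables can be a failed estimate. Interferon beta, Ifnb1, was at 0.512 and 0.119 TPM in YFP+ and 0.217 and 0.695 TPM in YFP- libraries. Ifng, interferon gamma, was the 1 ligand that passed the filter, at 3.35 and 1.52 TPM in YFP+ M and FM and at 23.2 and 10.8 TPM in YFP- M and FM. Both YFP- libraries were above both YFP+ libraries (-2.35, adjusted p = 0.0698). The 10 T and NK cell markers found, of the cells that make interferon gamma, summed to 444 and 497 TPM in YFP+ and to 3211 and 867 TPM in YFP- libraries. All 10 had a negative difference, as did 93.5% of all tested genes, and 5 (50.0%) were called lower, against 39.5%. Their part in the levels of the GTPases was not tested.

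Receptor and signalling genes that passed were lower in YFP+ libraries. Of 15 tested genes of the receptors and the JAK-STAT pathway 0 were called higher and 5 (33.3%) lower, beside 39.5% called lower among all tested genes. At an unadjusted p under 0.05 the counts were 0 and 8 (53.3%), against 0.718% and 52.4%. The type I receptor chain Ifnar1 (-2.94, adjusted p = 0.0240) fell, at 17.2 and 3.61 against 53.9 and 89.5 TPM, and so did the kinases Jak1 (-2.75) and Jak2 (-3.03), the feedback inhibitor Socs3 (-2.75) and the phosphatase Ptpn2 (-2.62). The partner chain Ifnar2 was at 394 and 177 against 261 and 292 TPM (-0.06, adjusted p = 0.951). Ifngr1, the main chain of the interferon gamma receptor, was at 306 and 117 against 496 and 774 TPM (-1.71, adjusted p = 0.0807), and the phosphatase Ptpn6 at 385 and 237 against 354 and 1129 TPM. None of these 8 genes was called under quantile normalization, median-ratio scaling or cyclic loess. Socs1, a feedback inhibitor, was the 1 gene of the 15 with a positive difference (0.41, adjusted p = 0.535 by limma). It was at 1.40 and 3.36 against 1.36 and 1.51 TPM. Socs1 was called higher under median-ratio scaling (1.91, adjusted p = 0.0448) but not under quantile normalization or cyclic loess.

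Among 17 tested genes of nucleic acid sensing 0 were called higher and 5 (29.4%) lower, against 39.5% of all tested genes (0 and 8 unadjusted, the 8 being 47.1% against 52.4%). Tmem173, which encodes the DNA-signalling adaptor STING, fell by 3.82 (adjusted p = 0.000971), from 331 and 448 TPM in YFP- to 56.9 and 11.9 TPM in YFP+ libraries, and it was called under quantile normalization (-2.78, adjusted p = 0.0486). Tmem173 was not called under median-ratio scaling (-1.57, adjusted p = 0.110) or cyclic loess (-2.82, adjusted p = 0.0676), or without YFP- M (adjusted p = 0.167), YFP+ FM (0.0813) or YFP- FM (0.588). On the deposited values the endosomal receptors Tlr3 (-3.10) and Tlr7 (-3.66) and the kinase Tbk1 (-2.96) also lay below the all-gene median of -1.73. The endosomal receptor Tlr9 (-1.53) lay above it. None of these genes was called lower under quantile normalization, median-ratio scaling or cyclic loess. Unc93b1, the chaperone of the endosomal receptors, was at 794 and 712 TPM against 395 and 1125 TPM (0.17), and the adaptor Myd88 at 114 and 48.3 against 112 and 282 TPM (-1.25). Of 8 other interferon regulatory factors 0 were called higher and 2 (25.0%) lower, against 0.522% and 39.5% of all tested genes. At an unadjusted p under 0.05 the counts were 0 and 3 (37.5%), against 0.718% and 52.4%. Irf4 was 1 of the 2 (-2.73, adjusted p = 0.0422 by limma). None of the 8 was called under quantile normalization, median-ratio scaling or cyclic loess. Irf1, Irf8 and Irf5, the most abundant, had differences of 0.45, -1.16 and -0.80.

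A wider set of 58 tested interferon-induced genes outside the 36 had a median difference of -1.25, close to the -1.19 of the 36. Of these 0 were called higher and 5 lower, against 0.522% and 39.5% of all tested genes (1 and 10 unadjusted, against 0.718% and 52.4%). The 4 with the lowest adjusted p were Gm14446 (-2.02, adjusted p = 0.0177), the RNA-processing exonuclease Pnpt1 (-3.26), Trim34a (-3.09) and Samd9l (-2.82). The most abundant were Ly6e (3351 and 2450 against 2773 and 1814 TPM), Lgals3bp (1314 and 1064 against 340 and 1376 TPM) and Ifi27l2a (1201 and 1020 against 1096 and 219 TPM), with differences of 0.35, 0.79 and 1.17 that did not pass. In rank, both YFP+ libraries were above both YFP- libraries for 21 of the 58 (36.2%) and below for 6 (10.3%), against 24.7% and 30.1% of all tested genes. The interferon-induced chemokine Cxcl10, named after its values were seen, was at 493 and 717 TPM in YFP+ and 146 and 194 TPM in YFP- libraries (1.81, adjusted p = 0.0668).

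Cell types other than macrophages can bring interferon-stimulated transcripts, and the levels of their marker lists are given beside the 39.5% of all tested genes called lower and the 93.5% with a negative difference. Plasmacytoid dendritic cells, which carry high Irf7 and Bst2, had 10 markers summing to 141 and 26.5 TPM in YFP+ and 443 and 221 TPM in YFP- libraries, with 5 called lower and 0 higher. The 1 marker at 0 in any list was Klk1 of this list, in YFP- FM. The 10 endothelial markers, of which Cdh5 is also a Kupffer cell marker, summed to 359 and 177 against 1259 and 1378 TPM, with 6 called lower. Of the monocyte and the neutrophil markers 9 each were found. Monocyte sums were 1277 and 2812 TPM in YFP+ and 2256 and 1311 TPM in YFP-, and neutrophil sums 1580 and 7062 against 2139 and 3966 TPM, with YFP+ FM highest in both, and 4 and 1 of these markers were called lower. For B cells the 6 markers summed to 532 and 77.5 against 605 and 617 TPM, for conventional dendritic cells the 7 to 131 and 162 against 136 and 178 TPM, and for hepatocytes the 8 to 2118 and 1728 against 2732 and 6262 TPM. Of these 3 lists 2, 6 and 2 genes were called lower and 0 higher. The part of these cells in the differences of the 36 genes was not tested, and neither was that of the microglia markers, whose median difference of -5.85 was the largest in size among these lists.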

How the data were processed

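RNA from 4 libraries of sorted liver macrophages was compared, grouped by the genotype label into 2 YFP+ and 2 YFP-. Replicates were numbered in order of deposit and pair nothing. Per the file headers the authors deposited mean coverage (a signal per base), FPKM and TPM for each gene. The submitters' processing notes list HISAT with no version, and GRCm38 and mm10 as builds. The program behind the tables and its use of strand: not given in the sources used here. Read counts are unknown, so neither count tests nor counting intervals were used.

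Rows sharing a gene name were summed. A gene was tested if 2 or more libraries reached 1 TPM (12251 genes). Two-sided tests on log2(TPM + 1) used limma 3.58.1 (R 4.3.3) with a mean-variance trend and Benjamini-Hochberg adjustment at 0.05. The prior degrees of freedom were infinite in this fit, so each p rests on the variance trend over all genes and not on the spread of that gene. For a single gene, exact permutation of 2 against 2 gives 0.3333 at the smallest. In data simulated for this comparison over 12251 genes, limma called 6 of 100 genes changed by 2 (log2), 49 of 100 changed by 4 and 0 of 12051 unchanged genes. Changed genes were drawn only from those with a mean level above the median, with signs at random and no shift common to all genes. The counts of called genes hold for the simulated data only. How often limma calls unchanged genes in the sequenced libraries was not tested. Alternatives were a pseudocount of 0.1, no filter or 5 TPM, 3 scalings, FPKM, a title start block and each library left out, with the filter reapplied.

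Library values are given for genes called in the fit or under a scaling and for the 3 most abundant per role. For each pathway list they are given for up to 4 called genes per direction and the 3 most abundant. Other genes with library values were picked after their values were seen. The 36 genes and all lists were chosen with earlier results of these data known. List names missing from the tables were looked up among RefSeq synonyms. Some results for single list genes are not reported here.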

Additional observations from a re-analysis of the deposited data

Results flagged for a closer look

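For 10 of the 36 interferon-stimulated genes the YFP+ minus YFP- difference, on the log2(TPM + 1) scale, was positive between the M libraries and negative between the FM libraries, against 13.3% of all tested genes with opposite signs. Each start has 1 library per group, so the difference between starts was not tested. Between the FM libraries the differences were -1.95 for Ifit3, -2.80 for Oas2, -1.76 for Oas3, -3.41 for Oasl2 and -2.66 for Rsad2, beside 0.65, 1.48, 2.41, 0.06 and 0.48 between the M libraries. They were -2.49 for Stat2, -1.98 for Usp18, -3.62 for Ifih1, -1.76 for Dhx58 and -0.36 for Xaf1, beside 0.80, 0.52, 0.11, 1.20 and 0.01. For Oasl2, Ifih1 and Xaf1 the M difference was within 0.12 of 0. The all-gene medians were -1.01 in M and -2.48 in FM.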

How the results depend on the processing

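With 2 libraries per group, calls moved with most settings, and the cause was not tested. Over all tested genes, calls higher and lower in YFP+ (64 and 4834 as reported) were 148 and 205 under quantile normalization, 689 and 723 under median-ratio scaling, 40 lower under cyclic loess, 120 higher with FPKM, 3078 lower with a pseudocount of 0.1 and 2902 lower with a filter at 5 TPM. Leaving out 1 library gave 12 to 71 higher and 24 to 8280 lower. With the title start as a replicate block 23 were higher and 1726 lower. Same-start libraries did not deviate together (correlation across genes -0.01), and nothing in the labels ties them to 1 animal.

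Of the 36 interferon-stimulated genes, 2 were called higher and 2 lower as reported. The counts were 1 and 0 under quantile normalization and with the replicate block, 11 and 0 under median-ratio scaling, and 0 and 0 under cyclic loess. The lower count was 1 with a pseudocount of 0.1, without a filter, with a filter at 5 TPM and with FPKM, where Irgm1 was called and Gbp5 was not (at 5 TPM Gbp5 and 1 other gene were not tested). Leaving out 1 library gave 0 to 2 higher and 0 to 18 lower, the 18 without YFP+ M; without YFP+ FM no gene of the 36 was called by limma (0 higher and 1 lower at an unadjusted p under 0.05). The median difference of the 36, -1.19 as reported, turned to 0.50 under quantile normalization, 0.89 under median-ratio scaling and 0.55 under cyclic loess, and ranged from -2.12 to -0.50 with 1 library left out.

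Differences that turned positive under quantile normalization were those of Ifit2 (0.015), Ifit3 (0.90), Mx2 (0.26), Oas2 (0.94), Rsad2 (0.63), Stat2 (0.84), Ifi44 (0.18), Usp18 (0.996), Ifih1 (0.30), Dhx58 (1.23), Gbp5 (0.37), Xaf1 (1.62), Isg20 (0.95) and Parp14 (0.20). Under cyclic loess they were those of Ifit2 (0.20), Ifit3 (0.81), Mx1 (0.049), Mx2 (0.43), Oas2 (0.96), Rsad2 (0.64), Stat2 (0.86), Ifi44 (0.32), Usp18 (0.998), Ifih1 (0.47), Dhx58 (1.20), Gbp5 (0.26), Iigp1 (0.051), Xaf1 (1.68), Isg20 (1.005) and Parp14 (0.23). Under median-ratio scaling they were those of Ifit3 (1.60), Mx2 (0.00049), Oas2 (1.57), Oasl2 (0.58), Rsad2 (1.12), Stat2 (1.38), Usp18 (1.49), Ifih1 (0.20), Dhx58 (1.97), Gbp2 (0.10), Gbp3 (0.47), Iigp1 (0.14), Igtp (0.46), Xaf1 (2.02), Isg20 (1.25) and Parp14 (0.65), and with FPKM Dhx58 (0.25) and Xaf1 (0.33). With 1 library left out the sign changed for Ifit3 (from -1.41 to 0.12), Oas2 (-2.06 to 0.74), Oas3 (-1.38 to 2.02), Stat2 (-1.85 to 0.15), Usp18 (-1.47 to 0.0038), Dhx58 (-1.28 to 0.72) and Xaf1 (-0.63 to 0.28).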
